A study of Mus musculus with 8 samples.

Results

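The claudin genes of the mouse large intestine were described here across 2 gut communities. The 9 members, Cldn1, Cldn2, Cldn3, Cldn4, Cldn7, Cldn8, Cldn12, Cldn15 and Cldn23, were taken by symbol from the 17041 genes of the deposited table. They are a part of the claudin family. Further claudin genes of that table, most of them with a mean value below 10, are described further on. The rule sets no threshold on a measured value, although the family was picked for description with earlier results of these data known. RNA came from the proximal large intestine of ApoE knockout mice, a strain prone to atherosclerosis, in 8 libraries that the labels number as replicates and for which they name no pooling. The mice were bred germ-free, were given their bacteria by 1 gavage at 8 weeks of age and were dissected at 26 weeks. In the core group (3 libraries), mice carried a core community that makes no butyrate. The name of the deposited table may refer to a further core library set aside by the authors, which is not analysed here, and its bearing on the differences was not tested. In the Roseburia group (5 libraries), mice carried the same core community plus Roseburia intestinalis, a bacterium that produces butyrate. Every mouse of both groups lacks ApoE, and neither mice with ApoE nor germ-free mice are used here, so the values describe these 2 gnotobiotic states only. The labels do not say which mice shared a cage or an isolator, nor their sex or diet, so the libraries of a group may not be independent in these respects.

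Claudins are membrane proteins with 4 passes through the membrane that form the strands of the tight junction, the seal between neighbouring epithelial cells. Some members tighten that seal, while others open pores through it that let cations or water pass. In the intestine the mixture of members changes along the crypt and from the small intestine to the distal colon. The tissue pieces hold epithelium, muscle, stroma, vessels and fat, so for each gene fewer cells of a type and less RNA per cell cannot be told apart.

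Depth was estimated in each library from its most common low value, refined on whole multiples and taken as the step of 1 read. It ran from 4607120 to 15350696 estimated reads. All 13 epithelial markers examined were read in every library, and their summed normalized value was 118800 to 137300 in core and 118700 to 150400 in Roseburia libraries. Smooth muscle markers (9 genes) summed to 137100 to 189500 in core and 92580 to 164100 in Roseburia libraries, and fibroblast markers (8 genes) to 8138 to 9335 and 4820 to 7222. Adipocyte markers (6 genes, with Lep at 0 in at least 1 library) summed to 1139 to 2789 in core and 320.8 to 1524 in Roseburia libraries, with a median log2 difference of -1.73 over the 5 tested, and endothelial markers (8 genes) to 941 to 1232 and 733 to 970.0. No gene of these lists passed the adjusted threshold, as no gene of the whole table did. A limma unadjusted p below 0.05 was found for 4 of 9 smooth muscle and 4 of 8 fibroblast genes tested. The same held for 3 of 5 adipocyte, 3 of 7 endothelial and 1 of 13 epithelial genes, against 8.13% of all genes. The summed ranges of the groups lay apart for the fibroblast markers and overlapped for the other lists given here. The part of muscle, stroma, vessels and fat in the claudin differences was not tested. Hoxb13, a homeobox gene of the distal colon, ran from 2.16 to 663 over the 8 libraries, with high and low libraries in both groups. GC-rich genes stood higher in some libraries than in others. The GC contrast of a library is the mean log2 deviation of its 3228 GC-rich genes (transcripts of at least 54.6% GC) minus that of its 3229 GC-poor genes (at most 45.3%). It was -0.49, 0.11 and -0.46 in core replicates 1 to 3. In Roseburia replicates 1 to 5 it was 0.90, -0.49, 0.07, 0.02 and 0.35.

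The 250 bases before the annotated start are shown for 4 members whose values rose and fell together or in opposite directions across the libraries (Cldn3 and Cldn7, with Cldn2 opposite) or that lie near each other on 1 chromosome (Cldn3 and Cldn4). They come from RefSeq, build GRCm38.p6, in which 7 of the 9 members matched; the exceptions were Cldn8 and Cldn23. The deposited values were made on mm9, so these coordinates belong to the sequences and not to the values. Each is written 5′ to 3′ on the gene's own strand, and capitals mark a match to a searched motif.
Cldn3, chr5:134985964-134986213, plus strand: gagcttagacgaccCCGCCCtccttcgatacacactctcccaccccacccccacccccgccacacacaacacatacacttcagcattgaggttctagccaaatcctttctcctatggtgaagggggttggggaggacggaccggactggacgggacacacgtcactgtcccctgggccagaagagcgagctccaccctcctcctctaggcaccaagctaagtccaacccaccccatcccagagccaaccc
Cldn4, chr5:134946935-134947184, minus strand: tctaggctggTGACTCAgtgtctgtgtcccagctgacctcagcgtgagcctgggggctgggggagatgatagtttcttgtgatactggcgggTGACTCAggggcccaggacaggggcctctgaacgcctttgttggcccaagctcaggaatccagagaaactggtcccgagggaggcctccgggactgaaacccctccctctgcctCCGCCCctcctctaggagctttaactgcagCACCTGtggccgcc
Cldn7, first start, chr11:69964529-69964778, plus strand: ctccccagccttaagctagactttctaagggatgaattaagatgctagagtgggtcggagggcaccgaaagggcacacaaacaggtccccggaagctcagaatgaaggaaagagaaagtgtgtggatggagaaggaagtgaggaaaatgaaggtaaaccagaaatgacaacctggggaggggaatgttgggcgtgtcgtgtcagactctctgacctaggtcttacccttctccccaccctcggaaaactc
Cldn7, second start, chr11:69965171-69965420, plus strand: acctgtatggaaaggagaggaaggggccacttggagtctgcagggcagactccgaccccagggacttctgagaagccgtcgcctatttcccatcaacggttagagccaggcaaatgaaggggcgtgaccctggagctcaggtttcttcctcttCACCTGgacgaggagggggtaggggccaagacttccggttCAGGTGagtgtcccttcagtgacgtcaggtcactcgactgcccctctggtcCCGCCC
Cldn2, chrX:139800558-139800807, plus strand: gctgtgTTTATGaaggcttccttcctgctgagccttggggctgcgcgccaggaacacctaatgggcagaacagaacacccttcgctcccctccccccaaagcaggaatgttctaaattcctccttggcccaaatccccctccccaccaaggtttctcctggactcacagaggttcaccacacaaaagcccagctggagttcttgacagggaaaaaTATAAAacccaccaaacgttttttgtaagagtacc

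The motifs searched, on both strands, were TATAAA (the TATA box), GGGCGG (the GC box bound by SP and KLF factors), TTTATG (a CDX site), AACCNGGTT (a Grainyhead-like site), CAAAGTCCA (an HNF4 site), TGACTCA (an AP-1 site) and CACCTG (an E-box that Snail factors can bind). No match overlapped another in these windows. Cldn3 had 1 GC box and Cldn4 had 1 GC box, 2 AP-1 sites and 1 E-box. The first Cldn7 start had no match, and the second had 1 GC box and 2 E-boxes. Cldn2 alone of the 4 had a TATA box, 35 bases before its start, and a CDX site, 244 bases before it. Of the 32851 windows of that length, 32.74% held the GC box, 4.46% the AP-1 site, 17.22% the E-box, 12.37% the TATA box and 10.76% the CDX site. The Grainyhead-like and HNF4 letters stood in 0.24% and 0.38% of windows and in none of the 5 shown. The 5 windows had 60.8% (Cldn3), 62.0% (Cldn4), 51.2% and 60.0% (Cldn7) and 52.0% GC (Cldn2), where the median of all windows was 52.4%. A match of letters is a description and shows no binding.

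Cldn3, Cldn7, Cldn15 and Cldn2 made up most of the claudin transcripts in every library. Levels were compared between genes as the normalized value per kb of the longest protein-coding transcript (GENCODE vM21). The means over all 8 libraries were 1303 per kb for Cldn3, 916 for Cldn7, 753 for Cldn15 and 554 for Cldn2. These 4 ranges overlapped, from 587 to 3430 per kb for Cldn3 and from 270.5 to 844 per kb for Cldn2. Cldn12 followed at 209 per kb (153 to 239.6), below the lowest Cldn2 library. Cldn23 (116 per kb, 88.5 to 194), Cldn8 (116 per kb, 57.6 to 201) and Cldn4 (71.9 per kb, 39.3 to 111) overlapped in their ranges. Cldn1 was lowest at 5.39 per kb (1.44 to 8.85), apart from all others. The levels summed over the 9 genes were 3170 ± 375 per kb (SD, n = 3) in core and 4567 ± 1417 per kb (SD, n = 5) in Roseburia libraries. The highest sum, 6930 per kb, was in Roseburia replicate 1, where Cldn3 was 49.5% of the sum, against 18.1% to 34.9% in the other 7 libraries.

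**Figure D1:**
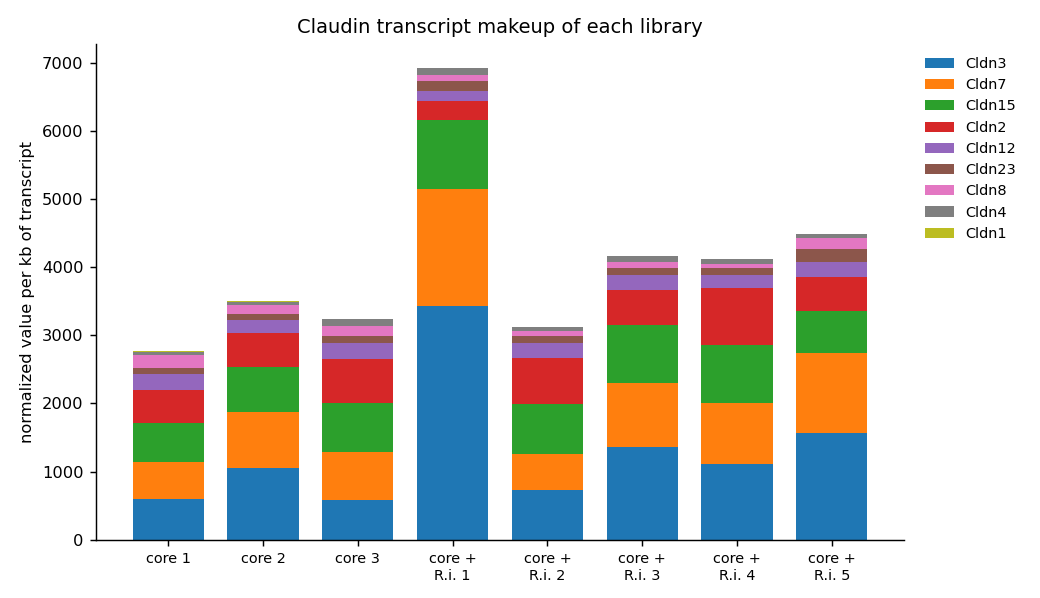
Normalized value per kb of transcript (vertical axis), stacked by claudin gene, in each of the 3 core and 5 Roseburia libraries (horizontal axis). Cldn3, Cldn7, Cldn15 and Cldn2 fill most of every bar, the tallest bar is Roseburia replicate 1 at 6930 per kb, and Cldn1, at most 8.85 per kb, is too low to see.

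The design sets mice with and without a butyrate producer side by side. Differences are on the log2(value + 1) scale, Roseburia minus core, by limma over the 13020 genes with a mean value of at least 10, a filter that all 9 members passed. None of the 9 members passed a Benjamini-Hochberg adjusted p of 0.05, and 0 of the 13020 genes did (percent called, 0). An unadjusted p below 0.05 was found for 2 of 9 members, against 8.13% of all genes (1058 genes, 578 higher and 480 lower; 192 higher and 754 lower with libraries rescaled to an equal epithelial mean). These were Cldn8, with a lower mean (3.69% of all genes lay past that p with a lower mean), and Cldn3, with a higher mean (4.44%). The median log2 difference was 0.30 over the 9 members, 5 above 0 and 4 below, and -0.003 over all genes tested, of which 49.6% were above 0. The authors' deposited table gave 0 members a posterior probability of differential expression of at least 0.95, a mark that 0.481% of its genes reached.

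**Figure D2:**
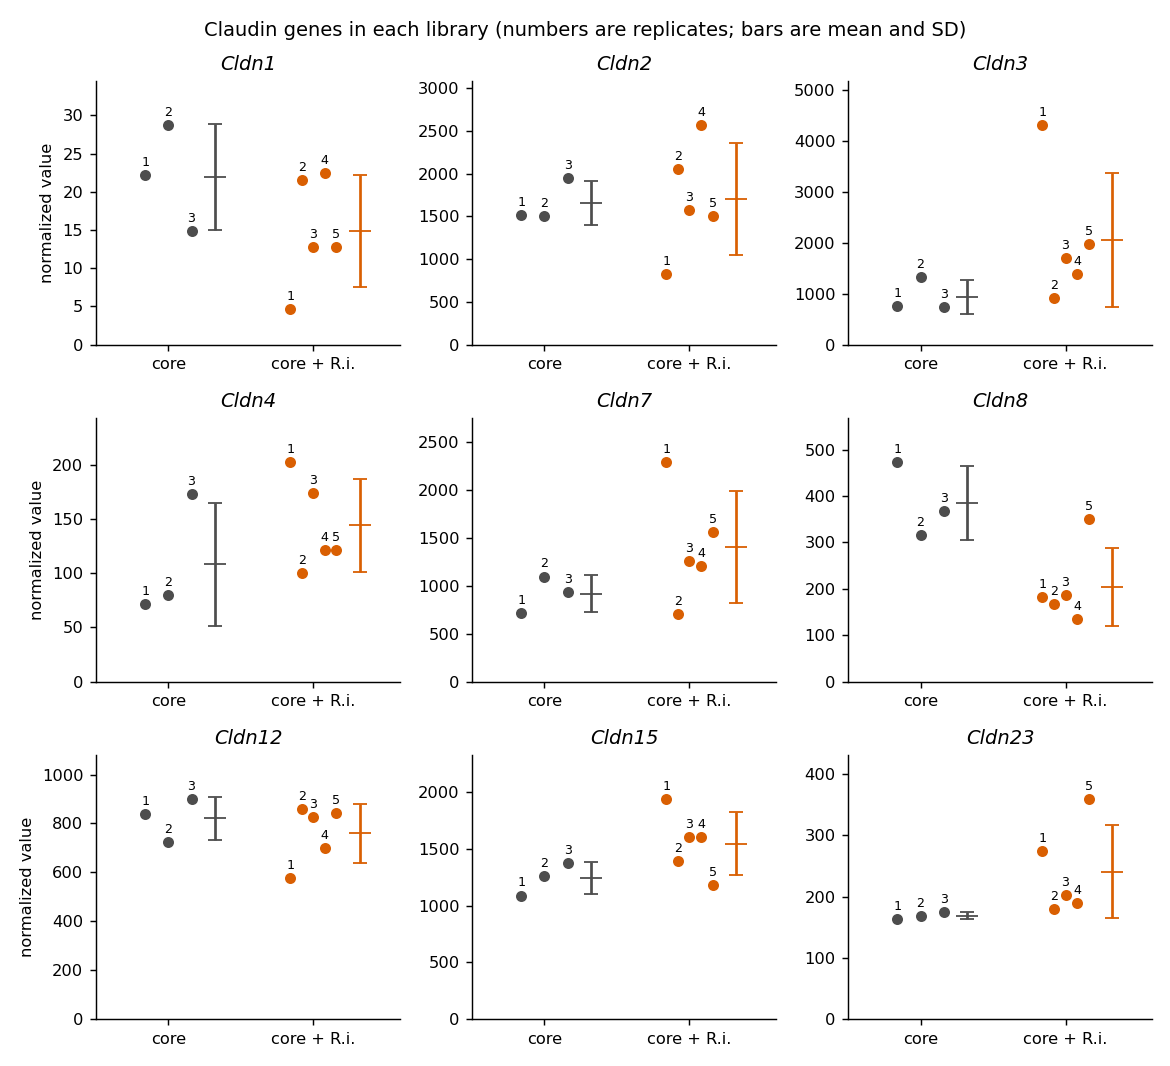
Normalized value (vertical axis, from 0) of each claudin gene in every library (points, numbered by replicate), with the mean and SD beside them, for core (n = 3) and Roseburia (n = 5). Cldn23 is the 1 gene whose groups do not overlap, Cldn8 is lower in 4 of 5 Roseburia libraries than in any core library, and replicate 1 is the highest point for Cldn3, Cldn4, Cldn7 and Cldn15.

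Of the members known to tighten the seal, Cldn8 had the smallest p of the family. Cldn8 is a barrier claudin of the distal colon and of the kidney tubule that limits the passage of sodium. Its normalized value was 473, 316 and 367 in core replicates 1 to 3, and 183, 167, 186, 136 and 350.2 in Roseburia replicates 1 to 5. Here 4 of the 5 Roseburia libraries lay below every core library, while replicate 5 lay inside the core range. Over all genes tested, 3.31% had every Roseburia library below every core library, and no member did. The means were 385.5 ± 80.0 (SD, n = 3) and 204.5 ± 83.9 (SD, n = 5). The log2 difference was -0.97 (SE 0.276, 95% interval -1.58 to -0.36), with a limma unadjusted p of 0.00516 and an adjusted p of 0.588. It stood at the 0.5th percentile of the differences of all genes tested and ranked 72 by p. A two-sided exact permutation test gave p = 0.0714, where the smallest p that 3 against 5 libraries allow is 0.0179. In the authors' deposited table Cldn8 had a posterior probability of 0.83, the highest of the members, at a raw fold change of 0.53, and 129 genes stood at that probability or above it. The other members had at most 0.04 (Cldn1). Between 115 and 408 estimated reads stood behind each value.

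The replicate with the highest Cldn8 of its group, Roseburia replicate 5, also had the highest Hoxb13 of all 8 libraries, 663. The 2 lowest Cldn8 values, in Roseburia replicates 4 and 2, were the libraries with the lowest Hoxb13, 8.26 and 2.16. Core replicate 3, however, had a Hoxb13 value of 25.3 with Cldn8 at 367, and Roseburia replicates 1 and 3 had Hoxb13 at 247 and 394 with Cldn8 at 183 and 186. With log2 Hoxb13 as a covariate the Cldn8 difference was -0.91 (limma unadjusted p = 0.00275, adjusted p = 0.197), an alternative chosen after the data were seen.

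Cldn3 had the largest positive difference. Cldn3 is a broadly expressed barrier claudin of the gut epithelium. In the core replicates its normalized value was 752, 1322 and 739, and 4319, 915, 1711, 1393 and 1975 in the Roseburia replicates. All but replicate 2 lay above every core library, and replicate 1 was the highest of the 8 libraries. The means were 938 ± 333 (SD, n = 3) and 2062 ± 1322 (SD, n = 5), a log2 difference of 0.99 (SE 0.413, 95% interval 0.08 to 1.91). The limma unadjusted p was 0.0365 and the adjusted p 0.588, and the two-sided exact permutation p was 0.125. The authors' deposited table gave Cldn3 a posterior probability of 0.0 at a raw fold change of 2.2. Without Roseburia replicate 1 the difference fell to 0.67.

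Cldn7, a claudin of the lateral membrane that binds Epcam, followed the same libraries as Cldn3. Its normalized value was 716, 1099 and 938 in core, and 2293, 707, 1256, 1212 and 1559.6 in Roseburia replicates 1 to 5. Again 4 of 5 were above every core library, but replicate 2 was the lowest of all 8. The difference on the log2 scale was 0.53 (SE 0.312, 95% interval -0.16 to 1.23, limma adjusted p = 0.604), and without Roseburia replicate 1 it was 0.33. Deviations of Cldn7 from its group means went with those of Cldn3 at a Pearson r of 0.942 over the 8 libraries, the highest of the 36 pairs of members, given as a description of libraries that also share depth and GC contrast.

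Cldn4, a barrier claudin that together with Cldn3 serves as a receptor for Clostridium perfringens enterotoxin, did not separate the groups. In the core replicates its normalized value was 71.4, 79.8 and 173, and 202, 100.3, 174, 122 and 121 in Roseburia libraries. The third core replicate stood with the higher libraries of the other group. The log2 difference was 0.48 (95% interval -0.23 to 1.19, limma adjusted p = 0.614), and it moved with the core library left out: it was 0.87 without core replicate 3 (limma unadjusted p = 0.0132, adjusted p = 0.591), 0.24 without core replicate 1 and 0.32 without core replicate 2.

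Cldn23, a claudin of the differentiated surface epithelium, was the 1 member of 9 in which the groups did not overlap, where 5.84% of all genes tested had groups apart and 2.53% had the Roseburia group above. Its normalized value was 163, 168 and 174 in core, and 274, 179, 202, 190.0 and 359 in Roseburia libraries. Replicate 2 of the latter group exceeded the highest core library by a few units only. The core libraries were close together (coefficient of variation 3.27%), while those with R. intestinalis spread more (31.5%). The difference on the log2 scale was 0.46 (SE 0.228, 95% interval -0.05 to 0.97), with a limma unadjusted p of 0.0701, an adjusted p of 0.588 and a two-sided exact permutation p of 0.125. Without Roseburia replicate 5 it was 0.30.

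Cldn1, a claudin best known for the seal of the skin, was close to the lower limit of the test. In the core replicates its normalized value was 22.2, 28.7 and 14.9, and 4.67, 21.6, 12.8, 22.4 and 12.8 in Roseburia libraries. Each value rested on 6.99 to 28 estimated reads, and the groups overlapped. The log2 difference was -0.65, with a 95% interval of -1.70 to 0.40 (limma adjusted p = 0.633), an interval that holds differences of either sign, and without Roseburia replicate 1 the difference was -0.32.

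Neither of the members that form cation pores passed the test at an unadjusted p of 0.05. Cldn2 forms a pore for cations and water and marks crypt epithelium. Its normalized value was 1516, 1506 and 1952 in core, and 823, 2049.9, 1571, 2568 and 1508 in Roseburia libraries. The latter group held both the lowest and the highest library of the 8. The difference on the log2 scale was -0.05, with a 95% interval of -0.72 to 0.63 (limma adjusted p = 0.96).

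Cldn15, the other cation pore of the intestine, which supplies the sodium that drives nutrient uptake, was narrower in its spread. In the core replicates its normalized value was 1089, 1264 and 1372, and 1938, 1397, 1609, 1602 and 1184 in Roseburia libraries. Here 4 of 5 lay above every core library and replicate 5 lay inside their range. The log2 difference was 0.30 (SE 0.164, 95% interval -0.06 to 0.67, limma adjusted p = 0.592).

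Cldn12, which has been linked to calcium passage and lacks the usual tail that binds scaffold proteins, varied least. Its normalized value was 839.7, 724 and 899 in core, and 576, 859, 826, 699 and 841 in Roseburia libraries. The difference on the log2 scale was -0.12 (95% interval -0.47 to 0.23, limma adjusted p = 0.765), and its highest library was only 1.56 times its lowest. The same ratio was 5.84 for Cldn3, 6.15 for Cldn1 and 1.78 for Cldn15. The SD of log2 values within groups was 0.725 for Cldn3 and 0.723 for Cldn1, each above that of 93.9% of genes tested, and 0.220 for Cldn12, above that of 28.8%.

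Per kb of transcript, Cldn8 and Cldn23 were in opposite order in the 2 groups. The ratio of Cldn23 to Cldn8 per kb was 0.441, 0.678 and 0.606 in core, and 1.91, 1.37, 1.38, 1.78 and 1.31 in Roseburia libraries. Cldn8 was thus the more abundant in 3 of 3 core libraries and Cldn23 in 5 of 5 of the other group. This pair was picked out after its values were seen, so the ratio is given with no test. The share of gene pairs that separate the groups in this way was not computed. The transcripts also differ in GC content (40.6% for Cldn8 and 54.8% for Cldn23), and the part of GC content in the ratio was not tested. As a share of the 9 genes per kb, Cldn8 was 5.30% ± 1.77 (SD, n = 3) in core and 2.00% ± 0.856 (SD, n = 5) in Roseburia libraries.

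The order of the 9 differences followed the GC content of the transcripts. Cldn8 (40.6% GC), Cldn1 (42.3%), Cldn12 (44.5%) and Cldn2 (48.8%) were the 4 members below 0, in that order from the lowest, and Cldn15 (54.1%), Cldn23 (54.8%), Cldn4 (56.8%), Cldn7 (57.0%) and Cldn3 (62.7%) were the 5 above 0, in order. Neighbours in this order had overlapping 95% intervals. Across these 9 genes, which share the same 8 libraries, Pearson's r of difference and GC content was 0.973, given as a description. The same lean ran through the table: the GC-rich genes had a median log2 difference of 0.29 with 78.5% above 0, and the GC-poor genes one of -0.17 with 21.1% above 0. After a GC correction, chosen after the data were seen, the differences were smaller for all 9 members, at 0.59 for Cldn3 (limma unadjusted p = 0.0293, adjusted p = 0.544), 0.27 for Cldn7, 0.22 for Cldn4, 0.30 for Cldn23 and 0.17 for Cldn15. They were -0.79 for Cldn8 (limma unadjusted p = 0.0217, adjusted p = 0.544), -0.49 for Cldn1, -0.01 for Cldn2 and 0.004 for Cldn12. The order by GC content was largely kept, with an r of 0.926 across the 9 genes after the correction.

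**Figure D3:**
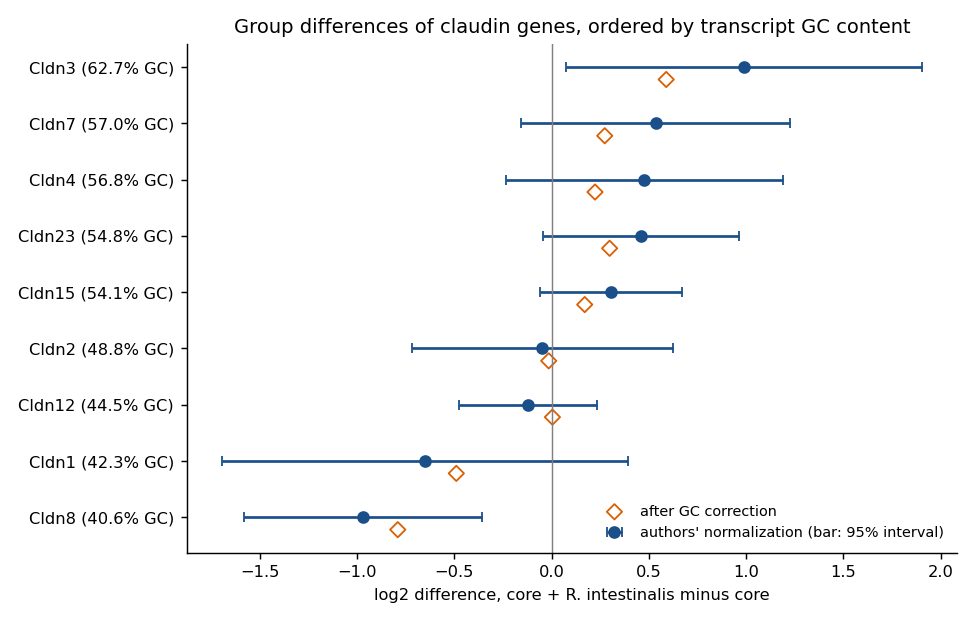
Log2 difference of each claudin gene, Roseburia minus core (horizontal axis; filled points with 95% intervals), with genes ordered by transcript GC content (vertical axis). Open diamonds give the difference after a GC correction. The differences run from -0.97 for Cldn8 (40.6% GC) to 0.99 for Cldn3 (62.7% GC) and lie nearer to 0 after the correction.

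Library by library, Cldn3 and Cldn7 went with the GC contrast. Both are among the GC-rich genes whose mean enters that contrast, so a positive relation was partly built in. The share of GC-rich genes with an r as high was not computed, so the relation cannot be called particular to claudins. The permutations exchanged libraries across the groups, so a group difference in both measures enters the p-values. Each of the 9 members was set against 4 library measures (GC contrast, the mean log2 value of the epithelial list, that of the smooth muscle list and log2 Hoxb13), 36 relations in all, with exact permutation p-values adjusted over the 36. With the GC contrast, Cldn3 had a Pearson r of 0.98 (exact permutation p = 0.000645, adjusted 0.00774; Spearman rho 0.833, p = 0.0154, adjusted 0.111). Cldn7 had an r of 0.971 (exact permutation p = 0.000298, adjusted 0.00536; rho 0.929, p = 0.00223, adjusted 0.0401). Without the 2 libraries farthest from the median contrast, r was 0.970 for Cldn3 and 0.925 for Cldn7, and within the 5 Roseburia libraries it was 0.988 and 0.992; the core group, with 3 libraries, is too small for a value.

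With the mean of the epithelial list, Cldn7 had an r of 0.964 (exact permutation p = 0.000248, adjusted 0.00536; rho 0.976, p = 0.000397, adjusted 0.0143). Cldn3 had an r of 0.90 (exact permutation p = 0.0032, adjusted 0.0288; rho 0.833, adjusted p = 0.111), and Cldn1 went the other way with an r of -0.874 (exact permutation p = 0.00637, adjusted 0.0459; rho -0.714, p = 0.0576, adjusted 0.23). Without the 2 farthest libraries these were 0.887, 0.783 and -0.724. The epithelial mean and the GC contrast ran much alike, so these relations are not independent of those with the contrast. Both measures were highest in Roseburia replicate 1 (12.73 and 0.897) and lowest in Roseburia replicate 2 (12.001 and -0.494). Cldn8 had an r of -0.297 with the GC contrast and -0.204 with the epithelial mean (exact permutation p = 0.486 and 0.631). None of the 18 relations with smooth muscle or Hoxb13 passed the adjusted threshold. Whether GC content, the share of epithelium or the community sets the Cldn3 and Cldn7 differences was not tested. With each library rescaled to an equal epithelial mean, which shifted the median of all genes by -0.209, Cldn3 stood at 0.78 (unadjusted p = 0.0269) and Cldn8 at -1.18 (unadjusted p = 0.0009), neither past the adjusted threshold (limma adjusted p = 0.57 for both).

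**Figure D4:**
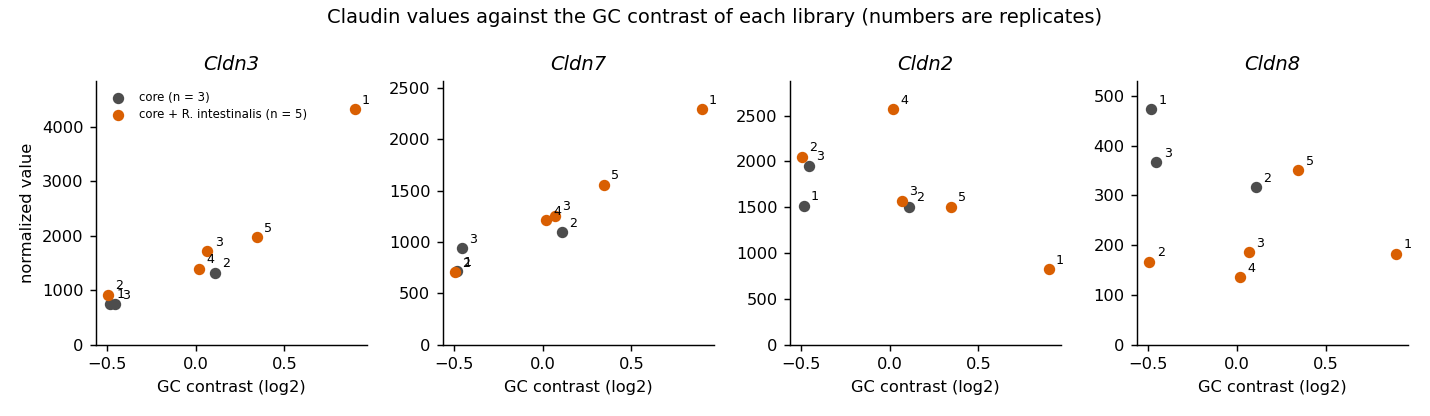
Normalized value of 4 claudin genes (vertical axes, from 0) against the GC contrast of each library in log2 units (horizontal axis); points are libraries numbered by replicate, dark for core (n = 3) and orange for Roseburia (n = 5). Cldn3 and Cldn7 are higher at a higher contrast (r = 0.98 and 0.971 on the log2 scale), Cldn2 is lowest in the library of highest contrast, and for Cldn8 the 3 core libraries lie above 4 of the 5 Roseburia libraries.

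The genes whose deviations from the group means were most like those of the 3 members with the largest spread were named, out of those with a mean value of at least 50. For Cldn3 these were Arap1, Ttc7, Clptm1, Sidt2 and Edc4, with Pearson r from 0.993 to 0.998 over 8 libraries and transcripts of 54.5% to 59.0% GC. For Cldn7 they were Gtf2ird1, Spryd3, Aph1a and Clstn1 (r from 0.993 to 0.994, 53.7% to 57.6% GC). For Cldn1 they were Fxyd5, Emr1, Il33, Tmem204 and Tmem176a (r from 0.971 to 0.987, 42.5% to 54.0% GC). These r values are descriptions of the same 8 libraries.

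The rest of the junction had no gene past the threshold. Of the 28 tight junction partners tested, 0 passed in either direction, and the median log2 difference was 0.10. Of the 28, 19 were above 0 and 9 below, where 49.6% of all genes tested were above 0. At an unadjusted p below 0.05, 2 were higher (4.44% of all genes were) and 1 was lower (3.69% of all genes). Prkcz, the atypical protein kinase C of the apical polarity complex, averaged 325 ± 47.9 in core and 529 ± 163 in Roseburia libraries (log2 difference 0.66, limma adjusted p = 0.588). Inadl, the polarity scaffold also called Patj, averaged 277 ± 35.1 and 405 ± 99.3 (log2 difference 0.52, limma adjusted p = 0.588). Jam3, a junctional adhesion molecule, averaged 146 ± 15.3 and 110.0 ± 15.97 (log2 difference -0.41, limma adjusted p = 0.588). Cxadr, the coxsackievirus and adenovirus receptor, had the highest mean value of the list, at 2109 ± 219 and 2164 ± 179.5 (log2 difference 0.04). Ocln, occludin, averaged 955 ± 171.5 and 834 ± 113.5, and Tjp1, the scaffold ZO-1 that binds claudin tails, 761.5 ± 72.9 and 874 ± 213 (both chosen after their values were seen).

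Of the claudin genes and claudin-domain genes that are not members, 13 were in the table and 3 passed the filter, Cldn10, Cldn14 and Cldnd1, with 0 past the threshold. Cldnd1, a claudin-domain protein, averaged 496 ± 93.3 and 379.5 ± 57.5 (log2 difference -0.38, limma adjusted p = 0.588). Cldn10, whose forms make cation or anion pores, averaged 9.81 ± 3.19 and 17.2 ± 9.97, and Cldn14 13.3 ± 8.88 and 18.6 ± 17.7. Cldn5, the claudin of vessel walls, averaged 8.60 ± 2.61 and 10.01 ± 5.09, below the filter. The other 9 had means from 0.0838 (Cldn19) to 2.485 (Cldn22) over the 8 libraries.

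Of 17 adherens junction and desmosome genes, 0 passed, and the median log2 difference was 0.13. The difference was above 0 for 14 of them, for 49.6% of all genes tested and for 78.5% of the GC-rich genes. Their transcripts ran from 42.5% (Dsc2) to 61.2% GC (Evpl), and the part of GC content in this count was not tested. At an unadjusted limma p below 0.05, 2 were higher (4.44% of all genes) and 0 lower (3.69% of all genes). Dsp, the desmosome linker desmoplakin, averaged 809 ± 99.3 and 1310.0 ± 524 (log2 difference 0.62), Ppl, periplakin, 61.6 ± 18.9 and 92.7 ± 20.5 (log2 difference 0.59), and Evpl, envoplakin, 40.8 ± 20.4 and 77.7 ± 34.8 (log2 difference 0.86). Their limma adjusted p-values were 0.588, 0.588 and 0.591. Cdh17, an intestinal cadherin, had the highest mean value, 6805 ± 1154 and 6430.0 ± 673. Cdh1, E-cadherin, averaged 4074 ± 526 and 4632 ± 1646 (chosen after its values were seen).

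Of 24 tested genes that regulate claudins, 0 passed, and the median log2 difference was 0.19. Here 16 were above 0 and 8 below, where 49.6% of all genes tested were above 0. At an unadjusted limma p below 0.05, 4 were higher (4.44% of all genes) and 1 lower (3.69% of all genes). The part of GC content in these counts was not tested. Vdr, the vitamin D receptor, which is known to bind the Cldn2 gene, averaged 2044 ± 561 and 3737 ± 1121 (log2 difference 0.86, limma unadjusted p = 0.0058, adjusted p = 0.588). Spint1, an inhibitor of the protease matriptase, averaged 671 ± 218 and 1170.0 ± 418 (log2 difference 0.78, limma adjusted p = 0.588). Epcam, which stabilizes claudin-7 at the membrane, had the highest mean value of this list, 12530.0 ± 1555 and 14310.0 ± 565, and ran only from 11501 to 14865 over the 8 libraries, over which Cldn7 ran from 707 to 2293. Cdx2, a factor that drives Cldn2, averaged 464 ± 58.6 and 613 ± 233, while Cldn2 averaged 1658 ± 254.5 and 1704 ± 652 (Cdx2 was chosen after its values were seen).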

How the data were processed

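The 8 libraries (3 core, 5 Roseburia) were made with a stranded mRNA kit, per the labels' protocols. Named in the submitters' processing notes, without role or order, are RSEM 1.2.23, Bowtie2 and the build mm9. The deposited table gives 1 value per gene and library, deposited by the authors as a normalized signal whose method of scaling no source here states. It also holds the authors' score (the posterior probability of differential expression) and a fold change, given by the authors as a linear ratio, per the file headers. Which tool gave these is not stated.

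Values were used as normalized by the authors, on the log2(value + 1) scale, which understates the change of low genes. The test took genes averaging at least 10 and was run with limma 3.58.1 in R 4.3.3 (mean-variance trend). Benjamini-Hochberg adjustment ran over all 13020 genes, with a threshold of 0.05. The script was tested on simulated data with noise drawn independently for each gene. Shifts that many genes share in a library, such as the GC contrast, were not part of that simulation. Each p-value reflects only the spread among the libraries. Of values under 30, whole steps (tolerance 0.05) took 81.0% to 84.6% in a library, too few to treat the values as reads, and no count test was run. Intervals are 95%. Transcript length and GC content came from GENCODE vM21 (99.0% of genes matched). The members and lists were chosen with earlier results of these data known. All members were named; of each other list, the 3 smallest p-values and the highest mean were named, and 2 genes that these rules pick are not reported here. Alternatives were other pseudocounts (0.5, 5), other filters (none, 50), TMM rescaling (own code), quantile normalization, an equal epithelial mean, leaving out single libraries, a block by replicate number, library weights and no trend. A GC correction (lowess, span 0.3) and Hoxb13 as a covariate were chosen after seeing the data.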

Additional observations from a re-analysis of the deposited data

Results flagged for a closer look

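Cldn8 in Roseburia replicate 5 was 350.2, far above the other 4 libraries of that group, which ran from 136 to 186. Its gap to the nearest of them was 0.764 of the group's range, over the 0.710 that Dixon's rule allows for 5 samples. The 9 members were each examined in this group, chance marks about 1 in 20 such groups, and core groups of 3 were not examined. Without this library the Cldn8 log2 difference was -1.18 (limma unadjusted p = 0.000127, adjusted p = 0.742). With all 8 libraries these p-values were 0.00516 and 0.588. The adjusted p depends on all genes tested, and the library was singled out after its value was seen.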

How the results depend on the processing

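With each library left out, Cldn2 ran from -0.219 to 0.191. Over 20 alternatives, 179 log2 differences of members were recomputed (Cldn1 falls below the stricter filter), and 176 kept their direction. Cldn2 turned to 0.08 without core replicate 3 and to 0.19 without Roseburia replicate 1, and Cldn12 to 0.004 with the GC correction. With library weights, Cldn8 (-1.10, limma adjusted p = 0.0416) and Cldn3 (1.02, adjusted p = 0.0482) passed the threshold, so that 2 members and 455 genes did; leaving out each library gave 0 members and 0 to 1 genes. The count of members with an unadjusted p below 0.05 was 5 with library weights (3829 of 13020 genes lay past that p), 4 with Hoxb13 as a covariate (2400 genes, against 1058 in the main test), 1 without the mean-variance trend, 1 with the replicate block and 1 to 4 with each library left out (1 without core replicate 1 or Roseburia replicate 3, 4 without its replicate 2). Cldn8 had an unadjusted p below 0.05 in all 20 alternatives and Cldn3 in 14. Cldn8 ranged from -1.18 to -0.81 and Cldn3 from 0.67 to 1.27 with each library left out. The authors' calls held 0 members at a posterior probability of at least 0.90 too.

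Libraries with the same replicate number had correlations of deviations from their group means of -0.115, -0.53 and -0.07. Pairs with different numbers ran from -0.494 to 0.479. So few pairs cannot show whether the numbers stand for a shared cage or batch. With the replicate block Cldn8 was -1.09 and 0 members passed the threshold (limma adjusted p = 0.923 for Cldn8). An equal epithelial mean shifted the median of all genes by -0.209 on the log2 scale, with Cldn12 at -0.33 and Cldn15 at 0.10 before allowing for it. Over all genes, the 1058 with an unadjusted p below 0.05 became 395 with the replicate block and 270 (without core replicate 1) to 1908 (without Roseburia replicate 2) with each library left out. Depth limits Cldn1 most. The cause of these changes was not tested.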
